A study of Mus musculus with 6 samples.

Results

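Rev-erbα is a nuclear receptor of the circadian clock that represses transcription, and its binding sites around 4 genes of growth signalling were examined in mouse liver. The sites were those with their centre in 4 windows of the mouse genome build mm9, each named after 1 gene. The windows were Dusp6 (chromosome 10, 98.67 to 98.83 Mb), Cdkn1a (chromosome 17, 29.17 to 29.29 Mb), Pim3 (chromosome 15, 88.64 to 88.75 Mb) and Igfbp1 (chromosome 11, 7.04 to 7.16 Mb). They held 21 of the 11767 peaks of the pooled list for zeitgeber time (ZT) 10, and 8 of these were also among the 3579 peaks of a second list, named for independence of the DNA-binding domain (DBD) of the receptor. The windows were chosen by the presence, number and rank of these same peaks, which are therefore a description and were given no test.

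The experiment was chromatin immunoprecipitation sequencing (ChIP-seq) of 6 livers with an antibody against Rev-erbα. All mice were males of a C57BL/6 background, 12 weeks old, on normal chow and a regular light cycle, without further treatment, and livers were taken at ZT 10. The labels give 3 livers as wild type and 3 as HNF6 KO, a knockout of HNF6, an Onecut transcription factor of hepatocytes, and do not say by which allele, driver or vector HNF6 was removed. The lists name no sample and hold no value for a single liver, so which livers each list draws on is not known. Binding at these sites was therefore not compared between wild-type and HNF6 KO livers, no spread between livers can be given, and the sequencing depth behind each peak is unknown. The liver origin could not be checked against marker genes from peak positions. No sample is labelled as having an altered DBD, so DBD-independent is used here as the name of a list only.

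Rev-erbα binds DNA through the nuclear receptor core motif preceded by an A/T-rich stretch, the element it shares with the ROR activators, and recruits the NCoR corepressor with HDAC3. In liver it has also been described to reach chromatin through other factors, HNF6 among them, without contact of its own DBD with the DNA. Dusp6 encodes a phosphatase that removes the activating phosphates from ERK and limits growth factor signalling by feedback. Cdkn1a encodes p21, an inhibitor of cyclin-dependent kinases that halts the cell cycle. Pim3 encodes a serine/threonine kinase that favours cell growth and survival, and Igfbp1 a secreted liver protein that binds insulin-like growth factors and is lowered by insulin.

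Of the 8 peaks that carry a distance to a start-site-like point, 1 lay within 1 kb of it, in the Dusp6 window, and its promoter sequence is shown because it is the only member that a promoter can be set against. Of the whole DBD-independent list 30.0% of peaks (1073) lay within 1 kb of their point and 47.2% beyond 10 kb, where 3 of the 8 lay. The distance deposited with the Dusp6 peak, -200 bp, refers to the peak centre, and negative distances are upstream by HOMER's convention, so the 150 bp peak ran from 275 to 126 bp before the point. The 250 bases before the RefSeq start of Dusp6 in the build GRCm38.p6 (chr10:99262981-99263230, plus strand) follow. The 125 bases in capitals are the part that the peak covers if the authors' point is this start. These coordinates are not mm9 and cannot be set against the peak coordinates. That the point and the RefSeq start are the same base was not tested.
Dusp6 promoter: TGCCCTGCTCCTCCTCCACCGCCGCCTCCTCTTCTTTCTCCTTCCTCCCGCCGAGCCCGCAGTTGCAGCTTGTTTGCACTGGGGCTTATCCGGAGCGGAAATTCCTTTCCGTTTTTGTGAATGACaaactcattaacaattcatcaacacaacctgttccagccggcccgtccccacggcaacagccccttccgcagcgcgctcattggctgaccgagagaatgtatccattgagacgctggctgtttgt

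The stretch was 56.4% G or C. It was searched on both strands, together with the 50 bases after the start, for 4 short motifs, and 0 matches were found to any of them. The nuclear receptor core motif AGGTCA occurs in 16.3% of the 32851 RefSeq promoters of the same 300 bp length. TAGGTCA, the core motif with the preceding T of the Rev-erb element, contains AGGTCA and occurs in 2.61% of them. The Onecut core ATTGAT occurs in 7.54% and the E-box CACGTG, the site of the clock activators, in 7.15%. The absence of a match says only that these letters are not in this window, and 25 bases of the peak lie before it.

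The 21 peaks fell unevenly over the windows, with 8 at Dusp6, 8 at Pim3, 3 at Igfbp1 and 2 at Cdkn1a. The highest-placed peak of each window, called its leading peak, stood within the first 1177 positions of the ZT10 list. That list carries no score, but for DBD-independent peaks its order followed the deposited values (Spearman's rho of position with the first value -0.94 over 3579 peaks). Position is used below in place of strength, which for the other peaks is an assumption. The leading peaks stood at position 9 (Cdkn1a), 98 (Dusp6), 116 (Igfbp1) and 1044 (Pim3). Of the 21 peaks, 6 stood among the first 1177 positions (28.6%), which by definition hold 10% of all ZT10 peaks. These 6 were 3 at Dusp6 and 1 in each other window. The median position of the 21 peaks was 3783, against 5884 for the whole list, and 7 of them stood after position 5883, its middle.

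DBD-independent peaks were found in 2 of the windows and in neither of the others. They were 4 of 8 peaks at Dusp6, 4 of 8 at Pim3, 0 of 2 at Cdkn1a and 0 of 3 at Igfbp1. Over the 4 windows this was 8 of 21 peaks, or 38.1% (95% Wilson interval 20.8 to 59.1%, counting error only), and 30.4% of all ZT10 peaks were in the DBD-independent list. The share in the windows was thus near that of the whole list. For the windows with 0 such peaks the upper Wilson bounds were 65.8% (Cdkn1a) and 56.1% (Igfbp1), so a count of 0 does not show a share below that of the whole list. All 8 DBD-independent peaks stood between positions 98 and 4244, and the 7 peaks after position 5883 were in the ZT10 list alone. Up to that position the windows held 14 peaks, of which 8 were DBD-independent (57.1%), against 40.7% of all ZT10 peaks there, and after it 20.2% of all ZT10 peaks were DBD-independent. Counts of 8 of 14 and 0 of 7 are too small to set the windows against the fall of this share along the whole list. Among the first 1177 ZT10 peaks 49.3% were DBD-independent. Of the 6 window peaks there, 3 were DBD-independent (2 at Dusp6, 1 at Pim3) and 3 were not (1 each at Cdkn1a, Igfbp1 and Dusp6).

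**Figure D1:**
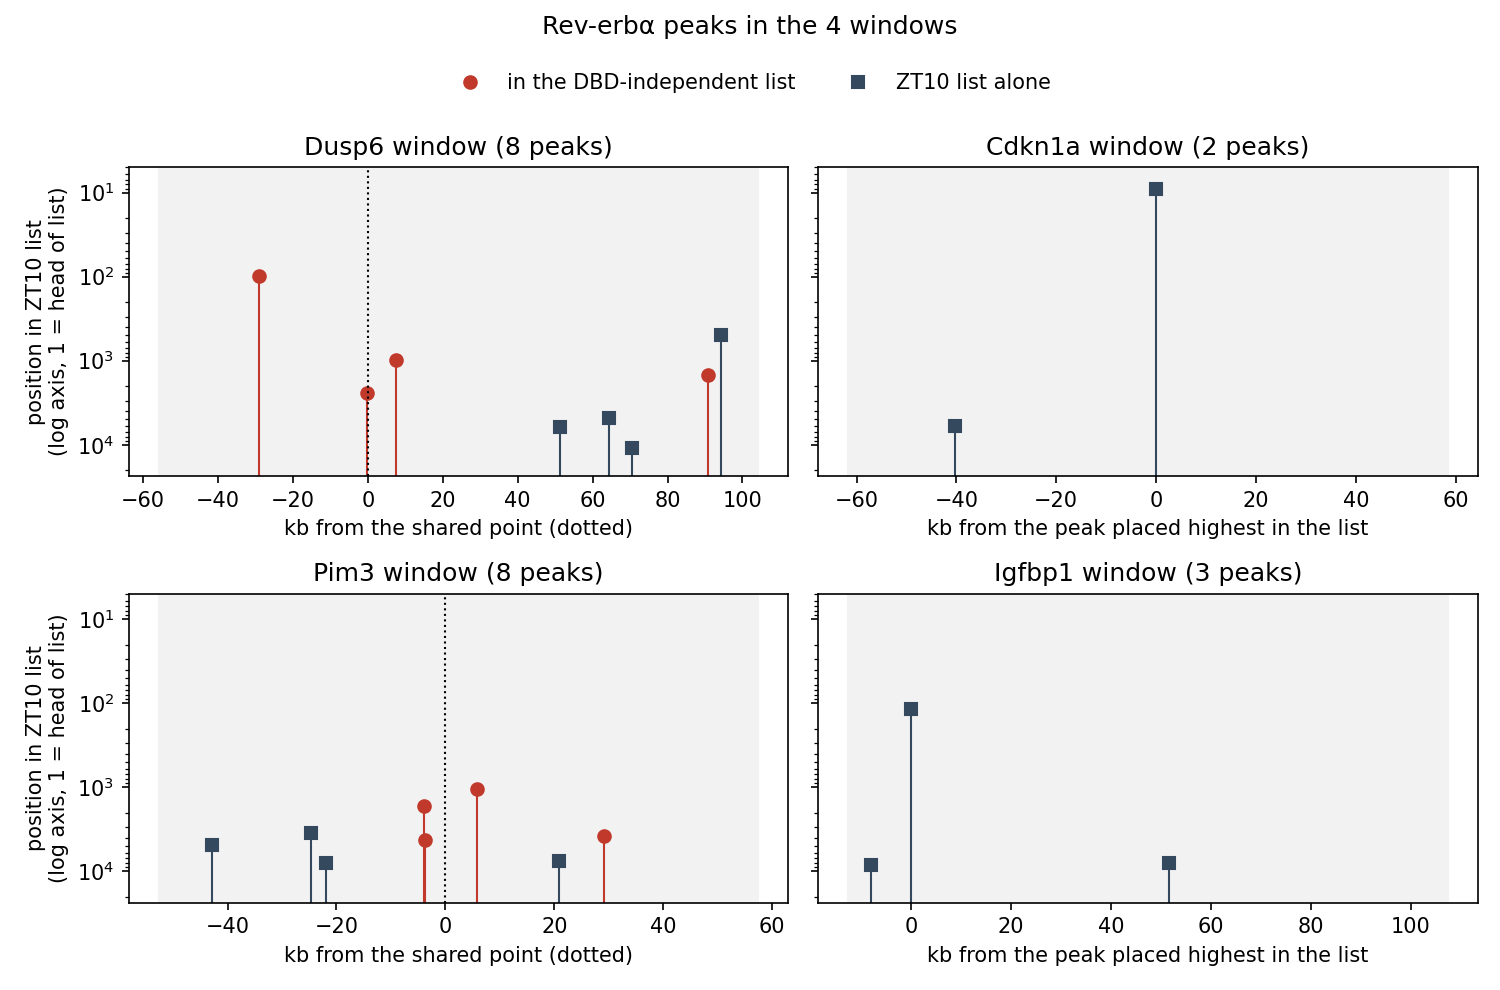
Position of each of the 21 peaks in the ZT10 list (vertical log axis, 1 at the head of the list) against distance in kb (horizontal axis) from the point shared by the DBD-independent peaks (Dusp6, Pim3) or from the highest-placed peak (Cdkn1a, Igfbp1), with the window shaded. Red circles are DBD-independent peaks and dark squares are peaks of the ZT10 list alone. The Dusp6 and Pim3 windows hold 4 peaks of each kind, and the single high peaks at Cdkn1a (position 9) and Igfbp1 (position 116) are in the ZT10 list alone.

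At Dusp6 the site placed highest lay far upstream and not at the start. The 4 DBD-independent peaks of the window referred to 1 point on the plus strand at 98725866 of chromosome 10, and Dusp6 lies on the plus strand in RefSeq. The authors' list names no gene for the point. Galnt4 and Csl are the protein-coding neighbours of Dusp6 in the RefSeq order of GRCm38.p6. The outer peaks are thus assigned to Dusp6 by window or by the authors' distance only. The authors deposited 2 whole numbers with each DBD-independent peak, called the first and second value here, whose unit is not stated. The peak 29.2 kb upstream (chr10:98696612-98696761, position 98) had values of 54 (first) and 44 (second), and 98.6% of all DBD-independent peaks had a lower first value. The promoter peak shown above (chr10:98725591-98725740, position 2409) had values of 16 and 16. The upstream peak was therefore 3.38 times the promoter peak by the first value and 2.75 times by the second.

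Downstream of the Dusp6 point lay 2 more DBD-independent peaks. The peak at a distance of 7391 bp (chr10:98733182-98733331, position 977) had values of 24 and 25. The peak at 90840 bp (chr10:98816631-98816780, position 1466) had values of 21 and 23. Both were above the promoter peak in both values, so that the promoter peak was the lowest of the 4. Its values were still above those of most of the list, with a lower first value at 64.9% of DBD-independent peaks.

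Between the near and the far downstream peaks of Dusp6 there was a stretch of 44.0 kb without a ZT10 peak, followed by 3 peaks of the ZT10 list alone. They were chr10:98777153-98777302 (position 6229), chr10:98790242-98790391 (position 4774) and chr10:98796229-98796378 (position 10898). The last of these stood closest to the end of the list among all 21 members. The eighth peak, chr10:98820031-98820180 (position 492), lay 3.4 kb beyond the DBD-independent peak at 90840 bp. It stood 974 positions ahead of that neighbour and yet was in the ZT10 list alone. Of the 20 ZT10 peaks within 10 positions of it, 9 were DBD-independent, with first values of 25 to 40.

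The Dusp6 point had the widest set of sites among comparable points. Over the whole DBD-independent list 472 points were shared by at least 2 peaks and 14 by at least 4, with Dusp6 and Pim3 among the 14. The peaks of the Dusp6 point spanned 120.0 kb, against a median of 55.8 kb over the 14 points, and 0 of them had a wider span. Its highest first value of 54 was above that of 12 of the 14, whose median was 28. The Pim3 point spanned 33.1 kb, with 9 of the 14 points wider, and its highest first value of 20 was above that of 1 of them. These are descriptions of points picked for their number of peaks.

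At Pim3 the sites were many, close together and of moderate value. The 4 DBD-independent peaks referred to a point on the plus strand at 88692625 of chromosome 15, and Pim3 too lies on the plus strand in RefSeq. None lay within 1 kb of the point. The highest-placed peak, 5817 bp downstream (chr15:88698367-88698516, position 1044), had values of 20 and 19. A pair of peaks lay upstream with centres only 280 bp apart. The outer peak of the pair at -4001 bp (chr15:88688549-88688698, position 1663) had values of 19 and 18, close to those of the downstream peak. The inner peak at -3721 bp (chr15:88688829-88688978, position 4244) had values of 7 and 6, lower than its partner by 2.71 times in the first value and 3.0 times in the second. Pairs this close were rare, as 90 ZT10 peaks (0.765%) had another centre within 280 bp. All ZT10 peaks were 150 bp wide, and the smallest distance between neighbouring centres was 0.154 kb, so peak calling itself limits such pairs. Whether the pair is a single enriched region called as separate peaks was not tested.

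The fourth DBD-independent peak of the Pim3 window, 29095 bp downstream (chr15:88721645-88721794, position 3783), had values of 9 and 8. The median first value over the whole DBD-independent list was 12. The Pim3 window thus had 2 peaks above this median and 2 below, whereas all 4 peaks at Dusp6 were above it. The 4 Pim3 peaks of the ZT10 list alone were chr15:88649709-88649858 (position 4876), chr15:88667954-88668103 (position 3530), chr15:88670675-88670824 (position 8029) and chr15:88713387-88713536 (position 7514). The first 3 lay upstream of the point and the fourth between the DBD-independent peaks at 5817 and 29095 bp. Gm33049 is the protein-coding gene before Pim3 in the RefSeq order of GRCm38.p6, and Ttll8 is the next after it. The outer peaks on both sides are thus assigned to Pim3 by window or by the authors' distance only.

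All 4 Pim3 peaks, and 1 of 4 Dusp6 peaks, had a second value lower than their first. At Dusp6 the values were equal at the promoter, and the second was higher at both downstream peaks. Second values divided by first values ran from 0.857 to 0.95 at Pim3 and from 0.815 to 1.10 at Dusp6. Over the whole DBD-independent list this ratio had a median of 0.889 and a range of 0.671 to 1.47, and the second value was the lower at 60.5% of peaks. The ratios of all 8 peaks lay within this range. With no replicate of these values, the difference between the windows was not tested.

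**Figure D2:**
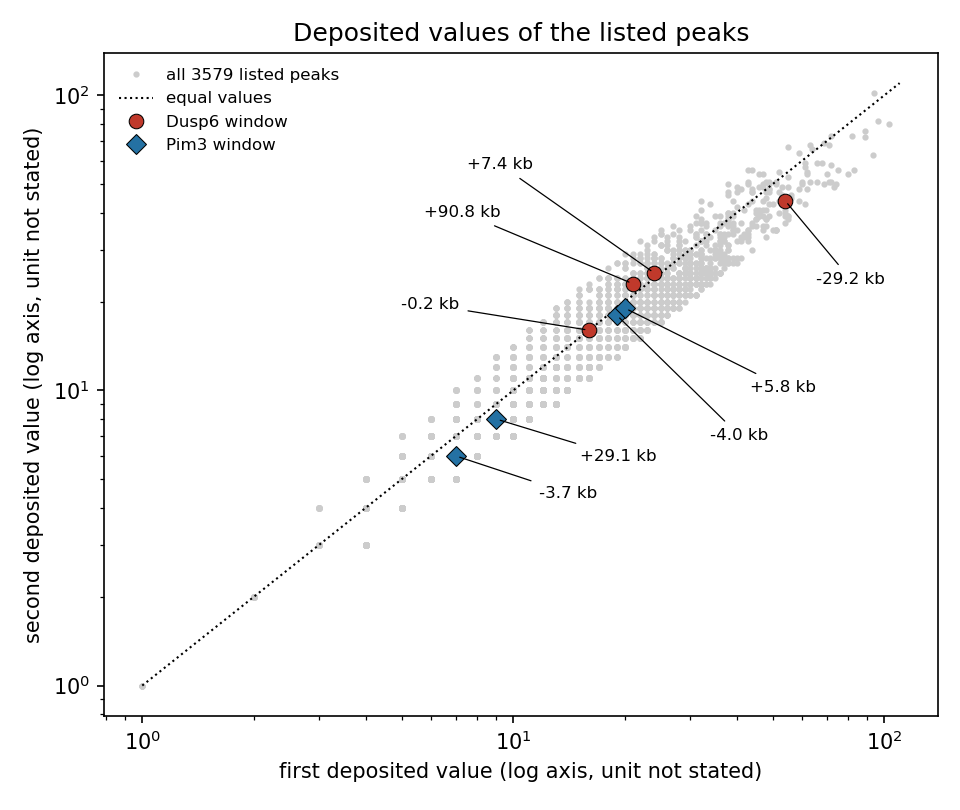
Second against first deposited value (both log axes, unit not stated) for all 3579 DBD-independent peaks (grey) and for the 4 peaks of the Dusp6 window (red circles) and the 4 of the Pim3 window (blue diamonds), labelled with their distance from the shared point in kb. The Dusp6 peak at -29.2 kb (54 and 44) lies near the upper end of the list, the Dusp6 promoter peak on the line of equal values (16 and 16), and the 4 Pim3 peaks below that line.

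At Cdkn1a a single site stood out. The peak chr17:29231556-29231705 was at position 9 of 11767 and was not in the DBD-independent list. Of the 8 peaks ahead of it, 6 were DBD-independent and 2 were not. The 11 DBD-independent peaks within 10 positions of it had first values of 69 to 103 (median 89) and second values of 50 to 102. The Cdkn1a peak itself carries no value in the files used here. The other peak of the window, chr17:29191259-29191408, lay 40.3 kb below it in coordinate and stood at position 5935. Srsf3 and Rab44 are the protein-coding neighbours of Cdkn1a in RefSeq, and neither peak carries a distance in the files used here. Whether they lie in a promoter, an intron or between genes was not analysed here.

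At Igfbp1, too, 1 site led and was absent from the DBD-independent list. The peak chr11:7052525-7052674 was at position 116. The 11 DBD-independent peaks within 10 positions of it had first values of 38 to 59, with a median of 49. The other peaks were chr11:7044414-7044563 (position 8504), 8.11 kb away, and chr11:7104135-7104284 (position 7949), 51.6 kb away on the other side. Both stood far down the list. In RefSeq Adcy1 is the protein-coding gene before Igfbp1, and Igfbp3, which encodes another carrier of insulin-like growth factors, is the next after it. The window name alone therefore does not tell which of Adcy1, Igfbp1 and Igfbp3 a peak lies closest to.

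Crowding of sites around the leading peak differed between the windows. Within 50 kb of the leading peak there were 7 other ZT10 peaks at Pim3, 3 at Dusp6, 3 at Igfbp1 and 1 at Cdkn1a. At Pim3 and Cdkn1a all of them were window members. The counts at Dusp6 and Igfbp1 take in peaks below the window, among them those at positions 5140 (Dusp6) and 8503 (Igfbp1). Over all members of a window, the counts ran from 4 to 7 at Pim3 and from 2 to 5 at Dusp6. They ran from 0 to 3 at Igfbp1 and from 1 to 3 at Cdkn1a, so the ranges of the windows overlap in part. The median count within 50 kb over all ZT10 peaks was 1, and 30.3% had none. A count of 7 or more was found at 13 ZT10 peaks (0.110%), and 3 of these 13 were the Pim3 peaks at -4001, -3721 and 5817 bp, which count each other. The close pair at -4001 and -3721 bp enters these counts as separate peaks. A count of 3 or more was found at 19.6% and of 1 or more at 69.7% of ZT10 peaks. The Cdkn1a peak therefore stood near the head of the list with no more company than most sites, and the Pim3 sites stood lower in the list but in one of its densest stretches. Of the 21 peaks 15 had another ZT10 peak within 10 kb, against 31.0% of the whole list. Windows drawn around known peaks favour such neighbours.

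**Figure D3:**
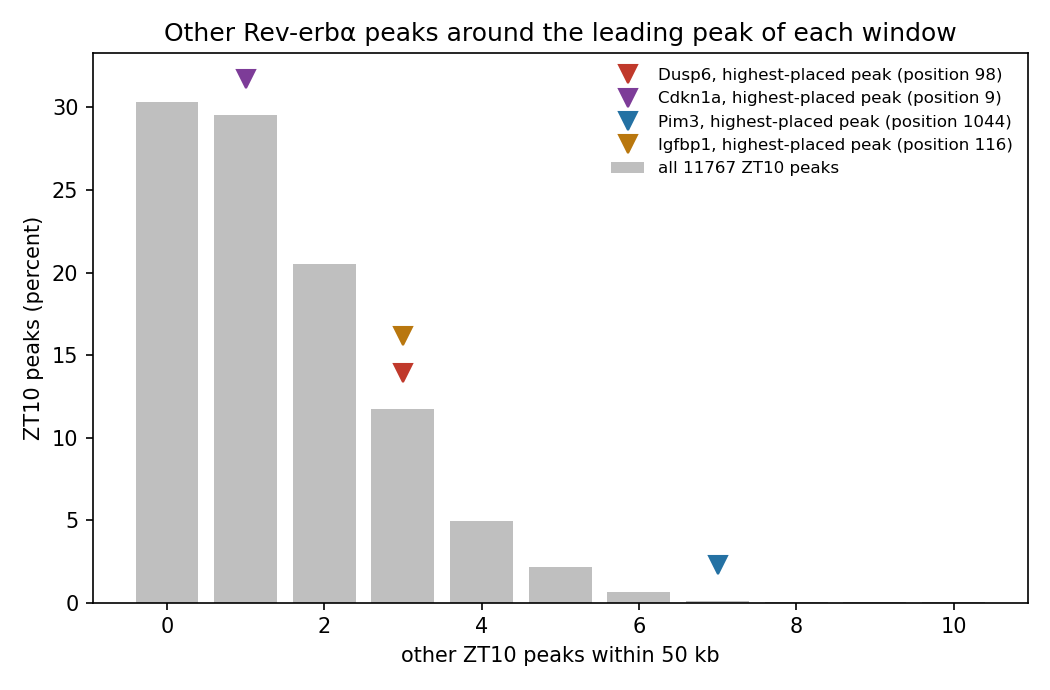
Share of all 11767 ZT10 peaks in percent (grey bars, vertical axis) by the number of other ZT10 peaks within 50 kb (horizontal axis), with a triangle over the bar of the highest-placed peak of each window. Pim3 lies at 7, where few peaks are found, Dusp6 and Igfbp1 at 3 and Cdkn1a at 1.

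The edges of the windows decide which peaks count. The nearest ZT10 peak outside the Dusp6 window lay 16.4 kb below its lower end (position 5140, ZT10 list alone), and the member nearest to an end lay 9.90 kb inside the upper end (position 492). At Cdkn1a a DBD-independent peak lay 7.31 kb above the upper end (chr17:29297237-29297386, position 9423, values 4 and 5), and the next peak below stood at position 2908. At Pim3 the nearest outside peaks stood at positions 11113 and 2068, the closer of them 27.1 kb away. At Igfbp1 a peak lay 6.06 kb below the lower end (position 8503), and the member just inside that end, at 4.49 kb, stood at position 8504. Above the Igfbp1 window no ZT10 peak followed for 1394 kb.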

How the data were processed

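The data were 2 peak lists deposited with ChIP-seq of 6 mouse livers (3 wild type, 3 HNF6 KO) with a Rev-erbα antibody. Neither list names a sample, so which livers stand behind its peaks and values is not known. Bowtie, HOMER and the build mm9 are named in the submitters' processing notes. The sources used here do not give their versions, the peak-calling settings or the rule behind the DBD-independent list. The ZT10 list was called on pooled samples per the file name, and the deposited file gives only coordinates. The DBD-independent list, as deposited by the authors, adds a signed distance in bp and 2 whole numbers per peak, treated as a score with no stated normalization and used only within that list. Its strand column holds 1 sign throughout, so the strand of a point was taken from the agreement of at least 2 peaks.

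Peaks entered by the centre of the peak and were matched between lists at a minimum overlap of 1 bp. The 3579 DBD-independent peaks are the ZT10 peaks with such a match. Named sites were all peaks with their centre in the 4 windows and the nearest peak outside each end. Members and lists were chosen with earlier results of these data known. No test was made. Single shares carry 95% Wilson intervals, and peaks are not replicates. Depth per sample is unknown. Wild type and HNF6 KO could not be fitted as planned, since that takes values of single samples. A planned list of other pathway genes needs an mm9 annotation and was not used here. Coordinates are 1-based in mm9. Gene order, strand and promoter sequence came from RefSeq tables of GRCm38.p6, in which all 4 genes were matched by symbol. Alternatives were other windows, overlap rules, distances and windows left out. Python 3.11.15, numpy 2.4.6, pandas 2.3.3, SciPy 1.17.1 and matplotlib 3.10.9 were used, and matching and counting were tested on simulated data and against bedtools 2.31.1.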

Additional observations from a re-analysis of the deposited data

How the results depend on the processing

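Of 47 alternatives to 14 results, 36 kept a count within 1.5 times, or a share or median within the 95% interval, of the value reported, and 11 did not. The 36 include alternatives that say nothing about stability. Counting any overlap with a window left every count as it was. The shares of window peaks in a shorter (19.0%) and a longer (38.1%) head of the list are other quantities than the 28.6% in the first 1177 positions. The DBD-independent share of 38.1% ran from 30.8% (without the Dusp6 or without the Pim3 window) to 57.1% (first 5883 positions of the ZT10 list, where the share over all ZT10 peaks is 40.7% in place of 30.4%). All these values lie in the Wilson interval of 20.8 to 59.1%, which is so wide at 21 peaks that this says little about stability. With only the middle 50% of each window, 12 peaks remained of 21, with 3 at Dusp6, 1 at Cdkn1a and 1 at Igfbp1. With windows widened by 50 kb at each end, Cdkn1a held 6 peaks and Igfbp1 held 5. Peaks per 100 kb were 5 at Dusp6, against 2 counted within 25 kb of the leading peak, and 1.67 at Cdkn1a, against 3 within 100 kb. They were 7.27 at Pim3, against 4.5 within 100 kb, and 2.5 at Igfbp1, against 4 within 50 kb and 6 within 25 kb. Each of these alternatives covers a different stretch of the genome. Those around a leading peak are centred on a peak that they always count, and they can take in peaks outside the window. The overlap rules left the share in the windows unchanged, and matched peaks of the 2 lists began at the same base. The alternatives to the first value, the ratio and the first 1177 positions were chosen after seeing the data. No paired analysis was possible because neither list separates the livers, and leave-one-out values could not be computed either. In the absence of a score, stricter thresholds were run on position in the ZT10 list.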
